A study of Mus musculus with 6 samples.

Results

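Ubiquitin-specific proteases (USP) and ovarian tumour (OTU) proteases, the deubiquitinase families that give most of the 66 genes described here, were compared between mouse quadriceps lacking the ubiquitin ligase subunit Fbxw7 in muscle and control quadriceps. The genes were taken by name: 56 symbols beginning with Usp and a digit and 10 beginning with Otub or Otud, of 22564 protein-coding rows. The knockout group, called MKO, carried MCK-Cre+/- and Fbxw7 flox/flox (n = 3 libraries), and the control group, called COM, carried Fbxw7 flox/flox without Cre (n = 3), so both groups carried the floxed allele and MKO alone carried the Cre transgene. MCK is the muscle creatine kinase promoter, active in differentiated skeletal and cardiac muscle fibres, so other cells of the tissue are not targeted. Total RNA from frozen, powdered muscle was depleted of ribosomal RNA and sequenced. The age of the mice was not given in the labels. The labels do not say that the libraries came from separate animals, so each p-value measures the spread between libraries, which may be partly technical.

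Deubiquitinases are proteases that cut ubiquitin from proteins or from ubiquitin chains and so oppose ubiquitin ligases. FBXW7 is the substrate receptor of an SCF ligase that marks MYC, JUN, NOTCH1, cyclin E and other phosphorylated proteins for the proteasome, and several USPs, USP28 and USP36 among them, are known to bind FBXW7 or to act on the same substrates. USPs are the larger family and mostly cut several chain types, whereas OTU proteases are often selective for a chain type. In muscle, deubiquitinases are known for parts in fibre wasting, mitophagy and protein quality control. Usp6nl fits the name rule but encodes a GTPase-activating protein for Rab proteins and is not a protease, and Usp39 encodes a USP-fold protein regarded as catalytically inactive.

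Levels are FPKM as deposited by the authors, that is, fragments divided by transcript length and by the number of mapped fragments in the library. A change is a log2 difference, MKO over COM, on the log2(FPKM + 0.1) scale, which understates the change of low genes, and a gene was called where its Benjamini-Hochberg adjusted p in limma, over the 11659 genes whose mean over the 6 libraries reached 0.5 FPKM, was under 0.05. Estimated fragments per library were 3150443 to 6704228 in MKO and 8435731 to 11783852 in COM, so the MKO libraries were the shallower ones. Fbxw7 itself had 4.02, 3.86 and 3.81 FPKM in MKO, against 6.51, 6.23 and 6.36 FPKM in COM (log2 change -0.69, SE 0.12, limma adjusted p = 0.0028). All 10 muscle-fibre markers were detected, with a summed level of 35460 to 37150 FPKM in MKO and 80260 to 82540 FPKM in COM, and 8 of them fell while 2 rose. Of the markers of other cells, the summed level of 5 measured B cell genes was 11.2 to 14.4 FPKM in MKO and 0.0855 to 0.231 FPKM in COM, with Cd79a and Ms4a1 at 0 in every COM library. That of 6 measured T cell genes was 8.29 to 12.8 FPKM in MKO and 0.0299 to 0.678 FPKM in COM. All 5 B cell genes and the 4 tested T cell genes were called higher, but they reached the level filter through their MKO values alone, so these counts add nothing to the levels. Adipocyte markers rose in 6 of 7 tested (448.9 to 515.6 FPKM in MKO, 402.1 to 416 FPKM in COM), Schwann cell markers in 4 of 8 (116.1 to 126.8 FPKM in MKO, 77.1 to 85.1 FPKM in COM), and fibroblast markers in 4 of 6 with 1 lower (494.7 to 580.8 FPKM in MKO, 451.8 to 475.1 FPKM in COM). Macrophage markers rose in 2 of 9 (105.1 to 131.2 FPKM in MKO, 91.5 to 99.7 FPKM in COM), and 0 of 8 endothelial markers passed the limma test in either direction (2 were higher and 0 lower at an unadjusted p under 0.05). In whole tissue, fewer cells of a type and less RNA per cell cannot be told apart, and the part of these other cells in the changes below was not tested.

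Of the 66 genes, 51 passed the level filter and 15 did not. Among the 51, 11 rose in MKO (21.6%, against 24.5% of all tested genes) and 1 fell (1.96%, against 10.1% of all tested genes), while 39 did not pass the test. In either direction, 34.6% of all tested genes were called. The 11 include Usp11, which reached the level filter through its MKO values, so its call is counted but not read as a result. The share that rose was thus near that of all genes and is not a result about these families, and the share that fell was below that of all genes, here and under the 3 rescalings given below. At an unadjusted p under 0.05, 24 members passed in limma. The share of all tested genes at that threshold is not given here and is at least the 34.6% called. Nothing is therefore read from the 24. Every MKO value lay above every COM value in 26 members (51.0%, against 35.7% of all tested genes), namely the 11 called members and 15 that were not called, and below it in 2, Otud6b and Usp16 (14.0% of all tested genes). The median log2 change was 0.32 over the members and 0.21 over all tested genes, a difference of 0.11. The COM library numbered 3 gave the lowest of the 6 values in 34 of 51 members (66.7%, against 38.2% of all tested genes), and without that library 7 members rose and the median was 0.19. Without MKO 1, the shallowest library, 15 members rose. Without the MKO library numbered 2, 7 rose, as without COM 3, the same 7 genes in both cases: Otud1, Usp3, Usp4, Usp5, Usp12, Usp20 and Usp28. Of all tested genes, 2860 rose with all 6 libraries. With 1 library left out, 2029 to 2786 of all tested genes rose, fewest without MKO 2 and most without MKO 1. The shifts in the member count are therefore not read as particular to these families.

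**Figure D1:**
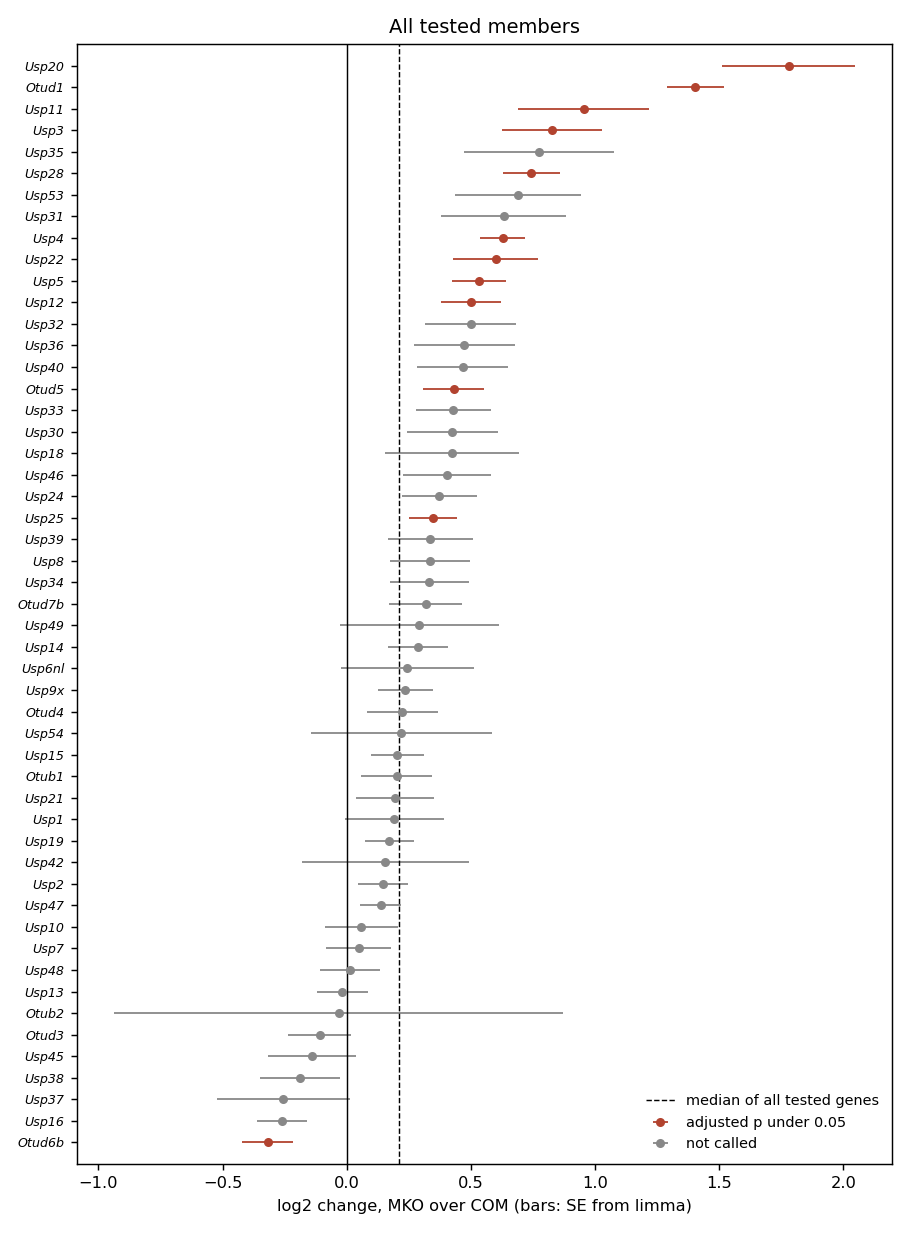
Log2 change (MKO over COM) of each of the 51 tested members, with the limma standard error as bars; red marks the 12 called members and the dashed line the median of all tested genes at 0.21. Most points lie right of 0, with Usp20 at 1.78 and Otud1 at 1.40 farthest right and Otud6b at -0.32 farthest left.

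Otud1, an OTU protease that prefers lysine-63-linked ubiquitin chains, and Usp20, which binds the von Hippel-Lindau protein and is known to act on receptors and metabolic enzymes, had the largest changes among the members. Otud1 measured 20.3, 19.6 and 20.4 FPKM in MKO, against 6.89, 7.13 and 8.71 FPKM in COM. The MKO values lay close together and well above the highest COM value. The means were 20.1 ± 0.417 FPKM in MKO and 7.58 ± 0.991 FPKM in COM (SD, n = 3 each), a 2.65-fold difference (log2 change 1.40, SE 0.12, limma adjusted p = 6.0e-05). Usp20 had 6.70, 5.50 and 9.38 FPKM in MKO, against 2.81, 1.46 and 1.87 FPKM in COM, so the groups were apart although the MKO values ranged widely. Its means were 7.19 ± 1.99 FPKM in MKO and 2.04 ± 0.691 FPKM in COM (SD, n = 3 each), a 3.52-fold difference (log2 change 1.78, SE 0.27, limma adjusted p = 0.0015). Otud1 (ENSMUSG00000043415) lies on chromosome 2 at 19657752 to 19660583 and Usp20 (ENSMUSG00000026854) on chromosome 2 at 30982279 to 31023586, both on the plus strand of mm10 in the GENCODE annotation.

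Usp28, Usp4 and Usp5 also rose, by 1.46- to 1.67-fold, and their library values were close within each group. Usp28, the nuclear protease known to counter FBXW7-directed turnover of MYC and JUN, measured 17.3, 17.9 and 16.3 FPKM in MKO, against 11.7, 9.96 and 9.20 FPKM in COM (means 17.2 ± 0.814 and 10.3 ± 1.26 FPKM, SD, n = 3 each). Its log2 change was 0.74 (SE 0.11, limma adjusted p = 0.0017). Usp4, known to act on the TGF-β type I receptor and on splicing factors, measured 30.6, 29.9 and 29.7 FPKM in MKO, against 20.0, 20.9 and 17.6 FPKM in COM, with a log2 change of 0.63 (SE 0.09, limma adjusted p = 0.00126). Usp5, also called isopeptidase T, takes apart unanchored ubiquitin chains. It measured 17.7, 21.5 and 21.2 FPKM in MKO, against 13.1, 14.7 and 13.7 FPKM in COM, with a log2 change of 0.53 (SE 0.11, limma adjusted p = 0.00651). Otud1, Usp20, Usp28, Usp4 and Usp5 stayed called under all 16 other settings tried. No 50-base stretch of the longest protein-coding transcript of each is shared with another gene's transcripts, and their other transcripts were not searched. Usp28 (ENSMUSG00000032267) and Usp4 (ENSMUSG00000032612) lie on chromosome 9, at 48985375 to 49042517 and 108347853 to 108392545, on the plus strand, and Usp5 (ENSMUSG00000038429) lies on chromosome 6 at 124815019 to 124829484 on the minus strand.

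**Figure D2:**
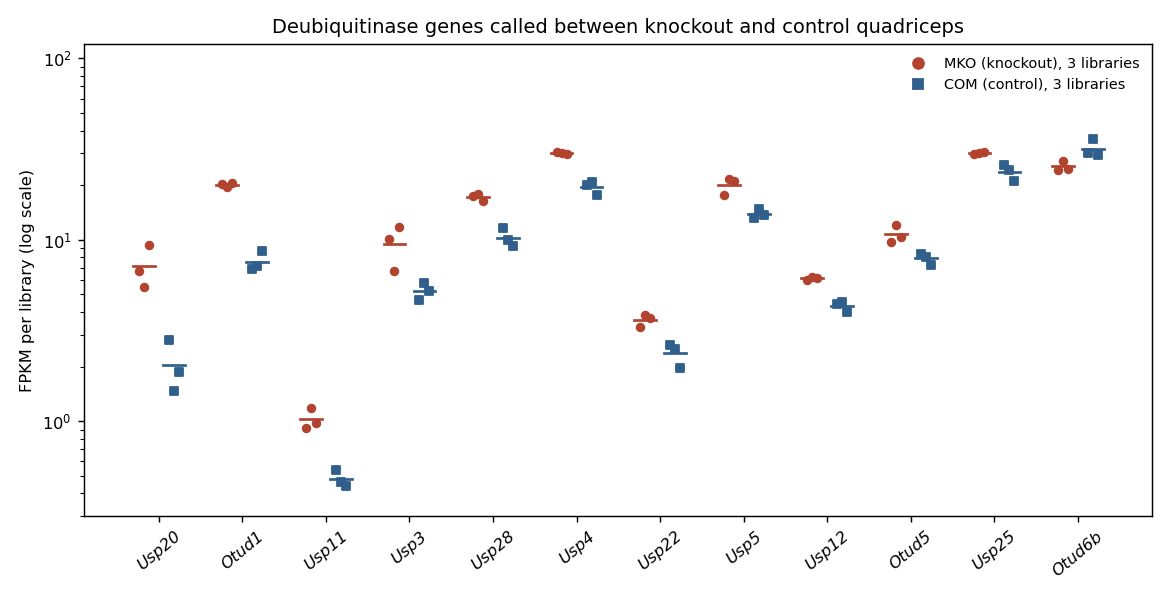
FPKM of the 12 called members in each of 3 MKO libraries (red circles) and 3 COM libraries (blue squares), on a log axis, with the group mean as a bar. The groups do not overlap for any of the 12 members, and Otud6b is the one member with the MKO values below the COM values.

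The 200 bases upstream of the RefSeq transcription start (GRCm38.p6, all on the plus strand) are shown for the 4 called members with the smallest limma adjusted p, to show what these promoters have in common. The capitals mark the E-box CACGTG, the palindrome bound by MYC, the CLOCK proteins and related basic helix-loop-helix factors, and the GC box GGGCGG or its reverse complement CCGCCC, bound by SP1-type factors. The windows are chr2:19657531-19657730 for Otud1, chr2:30982079-30982278 for Usp20, chr9:48985185-48985384 for Usp28 and chr9:108347631-108347830 for Usp4.
Otud1: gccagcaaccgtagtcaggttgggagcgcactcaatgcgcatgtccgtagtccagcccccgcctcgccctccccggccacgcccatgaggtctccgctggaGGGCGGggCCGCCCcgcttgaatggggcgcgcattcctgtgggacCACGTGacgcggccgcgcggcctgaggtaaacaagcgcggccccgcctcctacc
Usp20: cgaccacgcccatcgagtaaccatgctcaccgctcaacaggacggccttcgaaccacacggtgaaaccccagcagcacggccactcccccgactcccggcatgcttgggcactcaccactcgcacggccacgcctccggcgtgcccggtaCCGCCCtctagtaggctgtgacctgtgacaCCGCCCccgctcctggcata
Usp28: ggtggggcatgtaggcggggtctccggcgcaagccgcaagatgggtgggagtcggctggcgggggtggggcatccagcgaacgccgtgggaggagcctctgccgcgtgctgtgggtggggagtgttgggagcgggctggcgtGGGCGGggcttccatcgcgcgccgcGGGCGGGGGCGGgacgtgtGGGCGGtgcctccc
Usp4: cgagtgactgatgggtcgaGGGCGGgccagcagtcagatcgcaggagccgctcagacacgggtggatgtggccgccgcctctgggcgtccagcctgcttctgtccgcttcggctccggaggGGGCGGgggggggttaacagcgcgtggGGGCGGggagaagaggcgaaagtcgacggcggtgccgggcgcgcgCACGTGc

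All 4 stretches were rich in G and C, with 71.5% for Otud1, 67% for Usp20, 76% for Usp28 and 72.5% for Usp4, and held 2, 2, 4 and 3 GC boxes in that order. The E-box stood 54 bases upstream of the start in Otud1 and 7 bases upstream in Usp4, and these letters were not in the Usp20 and Usp28 stretches. In windows of 250 bases before to 50 after the start, searched on both strands, a GC box was found in 33 of 55 windows of 51 member genes (60%), against 35.7% of all 32851 windows. These 51 are the members with a window, tested or not, and are not the 51 tested members. The called members Usp5, Usp22 and Otud6b had no window, so the motif counts do not cover them. An E-box was found in 7 of the 55 (12.7%, against 7.15% of all windows), those of Otud1, Otud3, Usp4, Usp16, Usp31, Usp32 and Usp6nl. Of these 7 genes, 2 were called in the tissue, Otud1 and Usp4, beside 34.6% of all tested genes called in either direction, and nothing is read from this count. The AP-1 site TGACTCA, a site of JUN, was found in 5 of 55 (9.09%, against 5.2%), and the cAMP response element TGACGTCA in 2 of 55 (3.64%, against 1.79%). A match gives the presence of letters and not of a bound factor.

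The 6 other members that rose did so with smaller changes or from lower levels. Usp3, a nuclear protease that removes ubiquitin from histone H2A, measured 10.1, 6.72 and 11.7 FPKM in MKO, against 4.67, 5.74 and 5.21 FPKM in COM (log2 change 0.83, SE 0.20, limma adjusted p = 0.0145). Usp22, the catalytic subunit of the SAGA deubiquitinase module, measured 3.31, 3.86 and 3.69 FPKM in MKO, against 2.64, 2.50 and 1.96 FPKM in COM (log2 change 0.60, SE 0.17, limma adjusted p = 0.0265). Both act on chromatin, and a further histone H2A protease, Usp16, was not called: it measured 17.9, 19.0 and 20.7 FPKM in MKO, against 21.9, 22.1 and 25.1 FPKM in COM (log2 change -0.26, SE 0.10, limma adjusted p = 0.0715). Usp12, which needs the UAF1 scaffold (Wdr48) for full activity, measured 6.02, 6.23 and 6.19 FPKM in MKO, against 4.42, 4.55 and 3.996 FPKM in COM, with tight values in both groups (log2 change 0.50, SE 0.12, limma adjusted p = 0.0141). Usp25, which has a long muscle isoform, measured 29.6, 30.2 and 30.5 FPKM in MKO, against 25.9, 24.3 and 21.1 FPKM in COM (log2 change 0.35, SE 0.10, limma adjusted p = 0.0234). Otud5, known to act on TRAF3 in interferon signalling, measured 9.70, 12.1 and 10.3 FPKM in MKO, against 8.31, 8.08 and 7.29 FPKM in COM (log2 change 0.43, SE 0.12, limma adjusted p = 0.0266). Usp11, a relative of Usp4, was the lowest of the called genes at 0.916, 1.18 and 0.980 FPKM in MKO, against 0.537, 0.460 and 0.442 FPKM in COM (log2 change 0.95, SE 0.26, limma adjusted p = 0.0234). Its COM mean of 0.480 FPKM lay under the level filter, so the gene was tested through its MKO values. It also rested on as few as 13 fragments in a library. Its call is kept in the counts but is not read as a result. The calls of Usp11, Usp22 and Usp25 were lost without MKO 2, MKO 3, COM 2 or COM 3, with limma adjusted p up to 0.0819, 0.0837 and 0.0676 in that order. That of Otud5 was lost without any of these 4 libraries or COM 1, with limma adjusted p up to 0.0949.

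Otud6b, an OTU protease linked to proteasome assembly and translation, was the 1 member that fell. It measured 24.4, 27.2 and 24.7 FPKM in MKO, against 30.1, 35.9 and 29.5 FPKM in COM, and the groups lay close but did not overlap. The means were 25.4 ± 1.55 FPKM in MKO and 31.8 ± 3.53 FPKM in COM (SD, n = 3 each), with a log2 change of -0.32 (SE 0.10, limma adjusted p = 0.0411). The call was lost without any 1 of 5 libraries (each MKO library, and COM 1 or COM 2), where limma adjusted p reached 0.137, and it was held without COM 3. A share of 6.16% of its 50-base stretches is found in another gene, Gm12444.

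The members tied by role to FBXW7 differed in what they did: Usp28 rose, while Usp9x, Usp36 and Usp37 did not pass the test. Usp9x, a large protease known to act on FBXW7 itself, measured 17.99, 17.8 and 17.7 FPKM in MKO, against 16.3, 16.2 and 13.1 FPKM in COM (log2 change 0.24, limma adjusted p = 0.128). Usp36, a nucleolar protease known to act on MYC, measured 2.86, 4.79 and 4.16 FPKM in MKO, against 2.68, 2.64 and 2.92 FPKM in COM, where the first MKO library fell within the COM range (log2 change 0.47, limma adjusted p = 0.102). Without that library, the shallowest of the 6, the log2 change of Usp36 was 0.68 (limma adjusted p = 0.0174), but it was 0.32 without MKO 2 (0.293), 0.17 after quantile normalization (0.568) and 0.03 on the authors' count columns (0.87). Usp37, known for its part in the cell cycle and on cyclin A, measured 0.728, 0.831 and 1.04 FPKM in MKO, against 1.19, 1.18 and 0.801 FPKM in COM (log2 change -0.26, limma adjusted p = 0.484). The difference between these genes' changes was not tested.

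Usp2, whose transcripts follow the circadian clock in many tissues, had the highest level of all members, followed by Usp47 and Usp13, and none of these 3 passed the limma test. Usp2 measured 52.0, 56.0 and 55.1 FPKM in MKO, against 48.2, 56.4 and 43.7 FPKM in COM, with overlapping groups (log2 change 0.15, SE 0.10, limma adjusted p = 0.289). Usp47, which acts on DNA polymerase β in base excision repair, measured 52.0, 52.6 and 50.3 FPKM in MKO, against 48.4, 50.04 and 42.8 FPKM in COM (log2 change 0.14, SE 0.08, limma adjusted p = 0.228). Usp13, a relative of Usp5, measured 40.7, 35.5 and 38.8 FPKM in MKO, against 42.5, 40.2 and 34.0 FPKM in COM, with overlapping groups (log2 change -0.02, SE 0.10, limma adjusted p = 0.912). The next levels differed in order between the groups. In MKO they were those of Usp15 (mean 36.9 FPKM), Usp25 (30.1), Usp4 (30.1), Usp19 (26.2) and Otud6b (25.4), and in COM those of Usp15 (32.0), Otud6b (31.8), Usp25 (23.8), Usp10 (23.5) and Usp19 (23.3). The library values of Usp25 and Usp4 overlapped in MKO, and those of Usp15 and Otud6b overlapped in COM. In all, 20 tested members averaged at least 10 FPKM, 25 averaged 1 to 10 FPKM and 6 averaged under 1 FPKM. The median mean level was 7.06 FPKM for the members, against 5.24 FPKM for all tested genes.

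The other members with a known part in muscle or in protein quality control did not pass the test. Usp14, a protease bound to the proteasome, measured 22.3, 18.9 and 17.9 FPKM in MKO, against 17.8, 16.1 and 14.5 FPKM in COM (log2 change 0.29, limma adjusted p = 0.0956). Its exons overlap those of Thoc1 on the opposite strand over 2169 bases, and whether the counting used strand was not given in the sources used here, so reads of the 2 genes may be mixed. Usp33, Usp34 and Usp38 also overlap exons on the opposite strand, over 2362, 2137 and 1174 bases, so the same limit holds for them. Usp19, an endoplasmic reticulum protease known for its part in muscle wasting, measured 24.8, 28.4 and 25.4 FPKM in MKO, against 25.0, 23.6 and 21.2 FPKM in COM, with overlapping groups (log2 change 0.17, limma adjusted p = 0.208). Usp30, a protease of the mitochondrial outer membrane that opposes parkin, measured 2.28, 3.25 and 2.79 FPKM in MKO, against 1.99, 1.91 and 2.17 FPKM in COM (log2 change 0.42, limma adjusted p = 0.106). The groups of Usp30 did not overlap, which was also true of Usp14. Usp10, which works with the stress granule proteins G3BP1 and G3BP2, measured 23.1, 21.8 and 28.3 FPKM in MKO, against 23.2, 19.7 and 27.6 FPKM in COM (log2 change 0.06, limma adjusted p = 0.779). Usp18, which removes the ubiquitin-like protein ISG15, measured 0.907, 1.70 and 1.32 FPKM in MKO, against 0.900, 0.991 and 0.878 FPKM in COM (log2 change 0.42, limma adjusted p = 0.25).

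The called members' close relatives were set beside them in 5 groups, each of which holds a called gene by choice. Related members without a called gene, such as Otub1 and Otub2, are not among these groups. Usp28 and its close relative Usp25 both rose, with log2 changes of 0.74 and 0.35. Usp4 rose, and its relative Usp11 was higher too, though that call is not read as a result. Usp15, the third of that group, had 36.1, 40.2 and 34.3 FPKM in MKO and 33.8, 34.2 and 28.2 FPKM in COM (log2 change 0.20, limma adjusted p = 0.164). These 3 are known regulators of TGF-β signalling, and Usp15 was the most abundant of them. Usp33, the relative of Usp20, had 5.996, 6.53 and 6.29 FPKM in MKO and 5.02, 5.16 and 3.82 FPKM in COM (log2 change 0.43, limma adjusted p = 0.0544). In COM the mean of Usp20 lay below every Usp33 value, whereas in MKO the values of Usp20 spanned those of Usp33. Usp46, the relative of Usp12, had 2.11, 2.39 and 2.59 FPKM in MKO and 1.69, 1.94 and 1.65 FPKM in COM (log2 change 0.40, limma adjusted p = 0.108). Usp5 rose and its relative Usp13, with a log2 change of -0.02, did not pass the test. Whether the changes of 2 relatives differ from each other was not tested.

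**Figure D3:**
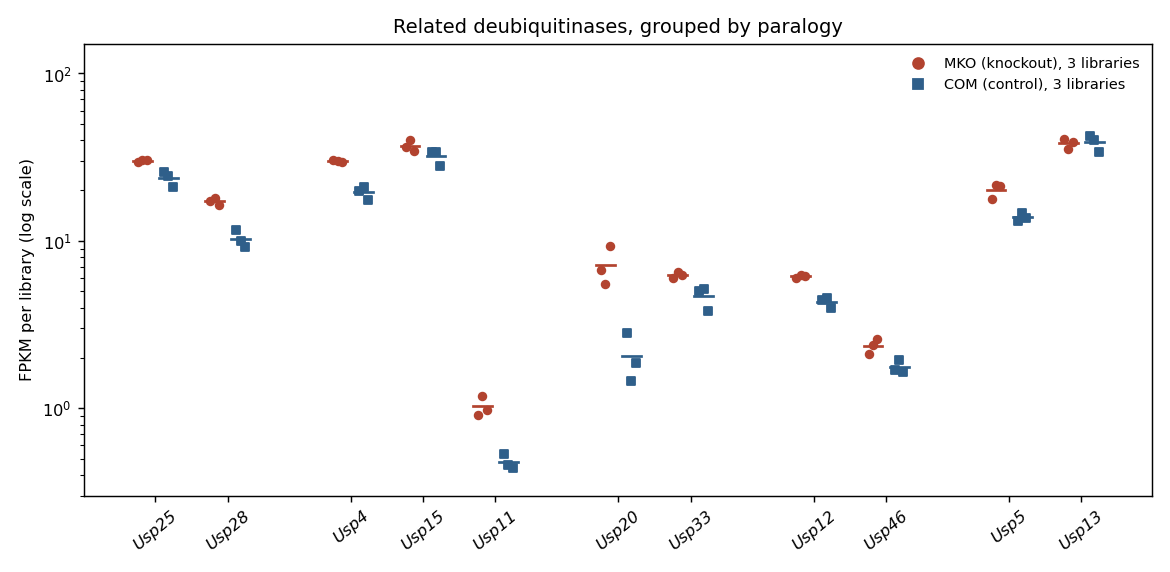
FPKM in each of 3 MKO libraries (red circles) and 3 COM libraries (blue squares), on a log axis with group means as bars, for related members set side by side: Usp25 and Usp28, then Usp4, Usp15 and Usp11, then Usp20 and Usp33, Usp12 and Usp46, and Usp5 and Usp13. Usp20 in COM, at 1.46 to 2.81 FPKM, lies below Usp33 in COM, at 3.82 to 5.16 FPKM, and the 2 genes share a range in MKO.

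The 39 tested members that were not called had log2 changes of -0.26 to 0.77 and limma adjusted p-values of 0.0544 to 0.981. Of these, 32 changes were positive and 7 negative. By family, 9 of 43 tested USP-named genes rose and 0 fell, with a median log2 change of 0.33, and 2 of 8 tested Otub and Otud genes rose and 1 fell, with a median of 0.21. These shares stand beside the 24.5% of all tested genes that rose and the 10.1% that fell, and the shares that rose are near 24.5%. The 0 lower USP-named genes in limma on FPKM compare with 1 at an unadjusted p under 0.05, Usp16, which was called lower after rescaling, as given below. Usp53, with values of 2.72, 2.68 and 2.23 FPKM in MKO and 1.62, 2.10 and 1.05 FPKM in COM, and Usp35, with 0.572, 0.738 and 0.749 FPKM in MKO and 0.389, 0.355 and 0.329 FPKM in COM, had the largest log2 changes among those that missed the threshold. Their log2 changes were 0.69 and 0.77 and their limma adjusted p-values 0.0665 and 0.0776. Usp35 reached the level filter through its MKO values (COM mean 0.358 FPKM) and rested on 4 to 20 fragments in a library, so its p of 0.0417 without MKO 1 is not read as a call. Precision followed level: the median standard error of the log2 change was 0.263 for 17 tested members averaging under 3 FPKM, of which 2 were called, 0.150 for 20 at 3 to 15 FPKM, of which 6 were called, and 0.103 for 14 at 15 FPKM or more, of which 3 were called with a higher level and Otud6b with a lower one. Single libraries also decided some of these cases: without MKO 1, Otub1 and Usp21 passed (limma adjusted p = 0.0145 and 0.047), without COM 1 Usp34 did (0.0439), and without COM 2 Usp53 did (0.0392). Otub2, a low-level OTU protease, was near 0 in 1 MKO library alone, with 1.35, 1.04 and 0.000339 FPKM in MKO and 0.357, 0.572 and 0.480 FPKM in COM. Its log2 change was -0.03 with a standard error of 0.90, and -0.65 on the authors' count columns. Without the third MKO library it was 1.20 (limma adjusted p = 0.0332). Otub2 reached the level filter through its MKO values (COM mean 0.470 FPKM), so this p is not read as a call. Usp1 and Usp49 share 22.9% and 51.8% of their 50-base stretches with Gm5841 and Gm20517, so their levels are uncertain.

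Of the 15 untested members, 9 were listed at 0 in all 6 libraries: Otud6a, Usp17la, Usp17lb, Usp17lc, Usp17ld, Usp17le, Usp26, Usp29 and Usp51. Several of these, Usp26 and the Usp17-like genes among them, are known from germ cells or cytokine-stimulated lymphoid cells. The other 6, Otud7a, Usp27x, Usp43, Usp44, Usp50 and Usp9y, were at 0 to 0.548 FPKM in every library.

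The summed level of the 51 tested genes was 623.4, 653.9 and 649.9 FPKM in MKO, against 565.3, 566.9 and 501.4 FPKM in COM. These sums did not overlap between the groups. They made up 0.1891 to 0.1907% of all FPKM outside the mitochondrial genome in MKO and 0.1123 to 0.1275% in COM. The share differed more than the sum because that total was itself lower in MKO. Every rescaling that set the median of all tested genes near 0 also moved the members, since that median was 0.21 on FPKM as deposited. After median-of-ratios scaling, 6 members rose (14.8% of all tested genes) and 2 fell (17.3%), with a member median of 0.12, and the 2 that fell were Otud6b and Usp16 (log2 change -0.46). After quantile normalization 6 rose (14.7%) and 4 fell (14.5%), the lower ones being Otud3, Otud6b, Usp16 and Usp38, with a median of 0.13. On the authors' scaled count columns 12 rose (19.5%) and 6 fell (21.0%), the lower ones being Otud6b, Usp2, Usp7, Usp13, Usp16 and Usp38, with a median of 0.07. Usp2 and Usp7, a nuclear protease known to act on MDM2 and p53, had other signs on the count columns: Usp2 was at 0.15 on FPKM and -0.22 on count columns (limma adjusted p = 0.0313), and Usp7 at 0.05 and -0.19 (limma adjusted p = 0.0482). The count columns differ from FPKM in measure as well as scaling. With FPKM rescaled, Usp2 was at -0.06 after median of ratios and 0.18 after quantile normalization, and Usp7 at -0.15 and -0.11, and neither gene was called. Usp16 was lower under each of the 3 rescalings. Otud1, Usp4, Usp5, Usp20 and Usp28 rose under all 4 scalings and Otud6b fell under all 4.

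**Figure D4:**
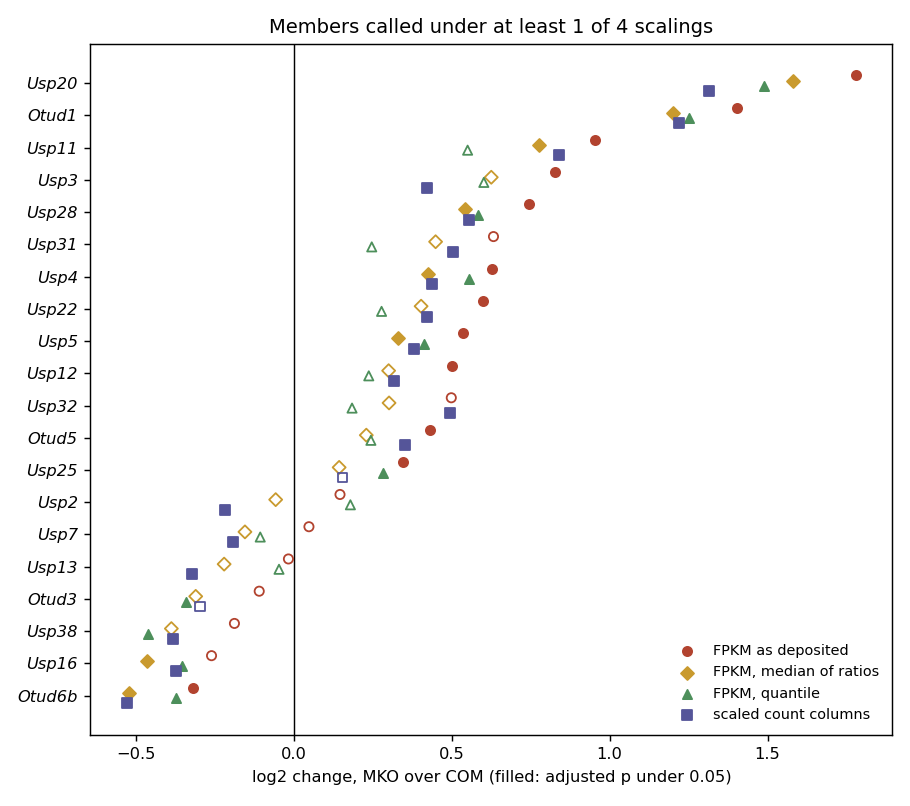
Log2 change (MKO over COM) of the 20 members called under at least 1 of 4 scalings: FPKM as deposited (red circles), FPKM after median-of-ratios scaling (yellow diamonds), FPKM after quantile normalization (green triangles) and the authors' scaled count columns (blue squares); filled symbols have a limma adjusted p under 0.05. Otud1, Usp4, Usp5, Usp20, Usp28 and Otud6b are filled under all 4, whereas Usp2, Usp7 and Usp13 are filled on the count columns alone, on the lower side.

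The FPKM and count columns also differed for single genes once both were scaled by the median of ratios. The median absolute gap was 0.037 on the log2 scale, and 8 members differed by at least 0.2. Usp20 had a log2 change of 1.58 on FPKM and 1.31 on count columns, Usp3 0.62 and 0.42, and Usp46 0.21 and -0.05. The cause of these gaps was not tested.

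Known partner genes of Usp1, Usp12, Usp46, Usp22 and Usp10 were compared, of which Usp12 and Usp22 were called. In the UAF1 and WDR20 scaffold of Usp1, Usp12 and Usp46, 1 of 2 tested genes rose: Wdr48, encoding UAF1, had 5.99, 4.67 and 3.81 FPKM in MKO, against 2.95, 3.01 and 2.38 FPKM in COM (log2 change 0.76, limma adjusted p = 0.0176). In the SAGA deubiquitinase module of Usp22, 1 of 6 rose and 0 fell. That gene was Eny2, with 9.55, 10.7 and 11.6 FPKM in MKO and 6.63, 9.27 and 7.04 FPKM in COM (log2 change 0.48, limma adjusted p = 0.0386). Of the G3BP partners of Usp10, G3bp1 rose (log2 change 0.34, limma adjusted p = 0.0314) and the other, G3bp2, was not called. The call for Wdr48 was lost after both rescalings of FPKM and without COM 3 (limma adjusted p = 0.0588). That for Eny2 was lost after both rescalings, on the count columns and without MKO 2, MKO 3, COM 1 or COM 3 (limma adjusted p up to 0.123). That for G3bp1 was lost after both rescalings, on the count columns and without MKO 2 or any COM library (limma adjusted p up to 0.112).

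Proteases with a USP or OTU fold whose symbols fall outside the name rule gave 3 of 8 tested genes higher and 0 lower in limma (also 3 and 0 at an unadjusted p under 0.05), with a median log2 change of 0.51, beside 0.21 over all tested genes. The 3 genes are 37.5% of the 8, beside 24.5% of all tested genes that rose. Fam105b, now named Otulin, the protease specific for linear chains, had 33.6, 35.0 and 37.6 FPKM in MKO, against 11.2, 12.1 and 11.7 FPKM in COM, with no overlap of the groups (log2 change 1.59, SE 0.09, limma adjusted p = 7.75e-06). Cyld, a USP-fold protease for linear and lysine-63 chains, had 7.79, 8.28 and 7.46 FPKM in MKO, against 3.35, 3.54 and 3.26 FPKM in COM (log2 change 1.19, limma adjusted p = 0.000194). Tnfaip3, encoding the OTU protein A20, had 1.94, 1.58 and 1.26 FPKM in MKO, against 0.726, 0.658 and 0.817 FPKM in COM (log2 change 1.01, limma adjusted p = 0.0139). The Tnfaip3 call was lost after quantile normalization and without COM 2 (limma adjusted p = 0.0514), and those of Fam105b and Cyld were held under every setting tried. Tnfaip3 is also expressed in lymphoid cells, whose marker levels are given above, and their part in its change was not tested.

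In the other deubiquitinase families, the JAMM family alone had calls in both directions. The counts below stand beside 24.5% of all tested genes that rose and 10.1% that fell. Of 11 genes of the JAMM (MPN domain) family, some of which, such as Psmd7, encode proteins without protease activity, 2 rose and 1 fell. Stambp, an endosomal protease, had 8.05, 7.54 and 8.31 FPKM in MKO, against 4.09, 5.07 and 5.21 FPKM in COM (log2 change 0.73, limma adjusted p = 0.00424), and Psmd14 of the proteasome lid rose (log2 change 0.28, limma adjusted p = 0.024). The Psmd14 call was lost after median-of-ratios scaling, on the count columns and without MKO 2, MKO 3, COM 1 or COM 3 (limma adjusted p up to 0.083 without a library). Cops5 of the COP9 signalosome had 43.7, 44.1 and 41.4 FPKM in MKO, against 57.5, 62.3 and 51.2 FPKM in COM (log2 change -0.40, limma adjusted p = 0.00951). Of 5 UCH genes, 1 rose, Uchl1, with 243.8, 265 and 291.5 FPKM in MKO, against 4.92, 5.92 and 6.71 FPKM in COM. Of 4 tested MINDY and ZUP1 genes, 1 rose, Fam63b (log2 change 0.76, limma adjusted p = 0.00768), and 0 of 3 Josephin genes passed the limma test, nor did any at an unadjusted p under 0.05.

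Further gene lists were compared, where 24.5% of all tested genes rose and 10.1% fell. A link between these lists and the members was not tested. Beside Usp2, 1 of 14 tested clock and clock output genes rose and 4 fell. Cry2 rose with a log2 change of 1.10, and Bhlhe40, Nr1d1 and Dbp were among those that fell, with log2 changes of -1.30, -0.58 and -0.56. The labels do not give the time of day of collection. Beside Usp18, 4 of 12 other tested interferon-stimulated genes rose, Oas2, Isg15 and Irf7 among them, and 0 fell, as at an unadjusted p under 0.05. Isg15, the target of Usp18, had 2.04, 1.16 and 1.902 FPKM in MKO, against 0.778, 0.767 and 0.596 FPKM in COM, but these levels rest on 4 to 9 fragments per library. The calls of these 3 named genes were lost after quantile normalization, that of Isg15 also without MKO 3 (limma adjusted p = 0.0509) and that of Irf7 without MKO 1, MKO 2, COM 1 or COM 3 (limma adjusted p up to 0.0837). Of the heat shock and folding genes, a list not tied to a single member, 14 of 15 rose (93.3%). Their median log2 change was 0.95, and Hspe1 was the gene that did not pass.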

How the data were processed

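RNA of 6 quadriceps libraries was sequenced after ribosomal RNA depletion with a stranded total RNA kit, per the labels' protocols. The submitters' processing notes name cutadapt 1.9.3, HISAT2 2.0.4, Cufflinks and Cuffdiff (versions not given) and the mm10 build. The authors deposited, for 22564 protein-coding rows, FPKM and a scaled count per library; whether counting used strand, and how the count columns, a depth-scaled coverage signal the authors deposited, were scaled, is not given in the sources used here. From the count columns, 92.6 to 94.2% of values per library came out as whole multiples of 1 fragment (tolerance 0.1 fragments). These were too few to recover reads, so depth is an estimate and no count model was run. Rows sharing a symbol were summed (79 symbols, 0 of them members).

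The genes whose mean over the 6 libraries reached 0.5 FPKM were fitted as log2(FPKM + 0.1) with limma 3.58.1 in R 4.3.3 (eBayes with trend), without a replicate block, and p-values were Benjamini-Hochberg adjusted over all 11659. With 3 libraries against 3, an exact two-sided permutation test of one gene cannot go below p = 0.1, the value Fbxw7 gave. On simulated data of 11534 genes, the fit recovered 62% of genes changed by log2 1 and 92% by log2 2, with 3.75% false calls. The 16 alternatives were other pseudocounts, filters, scalings and fits, the replicate block, the count columns, and each library left out. The labels do not say that library numbers pair the samples. Same-numbered libraries correlated at -0.066, 0.197 and 0.176, and different-numbered ones at -0.291 to 0.183. So few correlations cannot decide whether the libraries were paired. Values per library are given for called members, members tied to FBXW7 or muscle, and up to 4 genes of each list; other named genes were chosen after their values were seen. The members and all lists were chosen with earlier results of these data known. Some genes of the lists are not reported here. Positions are from GENCODE M21, promoters from RefSeq. Overlaps and shared 50-base stretches were computed from the GENCODE transcripts, the stretches from the longest protein-coding transcript of each member alone.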

Additional observations from a re-analysis of the deposited data

How the results depend on the processing

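Fbxw7 and 5 called members (Otud1, Usp20, Usp28, Usp4 and Usp5) kept their calls under all 16 alternatives, with limma adjusted p-values up to 0.000957 for Otud1, 0.0101 for Usp20, 0.00969 for Usp28, 0.00794 for Usp4 and 0.0318 for Usp5. The other 7 lost theirs under at least 1, with adjusted p-values up to 0.12 for Otud5, 0.137 for Otud6b, 0.119 for Usp11, 0.113 for Usp12, 0.161 for Usp22, 0.188 for Usp25 and 0.0726 for Usp3. Members higher numbered 6 after median-of-ratios scaling and 6 after quantile normalization, and 7 to 15 with 1 library left out. Members lower numbered 0 without the level filter, 0 without limma's trend, 2 after median-of-ratios scaling, 4 after quantile normalization, 6 on the count columns, and 0 to 1 with 1 library left out. All genes higher numbered 2860 on FPKM, 1724 after median-of-ratios scaling, 1715 after quantile normalization and 2029 to 2786 with 1 library left out. All genes lower numbered 1177 on FPKM, 2018 after median-of-ratios scaling, 2449 on the count columns and 817 to 1090 with 1 library left out. The member median of 0.32 was 0.115 after median-of-ratios scaling, 0.131 after quantile normalization, 0.0746 on the count columns and 0.191 to 0.411 with 1 library left out. The cause of these shifts was not tested.

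With library number as a replicate block, 11 members rose and 1 fell, as without it, but Usp11 was lost and Usp14 gained (adjusted p = 0.0499). Whether the numbers pair the samples is not given in the labels.

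Uncalled members whose log2 change turned sign were, after median-of-ratios scaling, Otub1 (-0.00269), Usp1 (-0.009), Usp10 (-0.144), Usp19 (-0.0313), Usp2 (-0.0576), Usp21 (-0.00851), Usp42 (-0.0347), Usp47 (-0.0676), Usp48 (-0.188) and Usp7 (-0.155). After quantile normalization they were Otud4 (-0.00254), Usp1 (-0.0594), Usp10 (-0.0247), Usp42 (-0.19), Usp48 (-0.183), Usp49 (-0.0925), Usp54 (-0.12), Usp6nl (-0.167) and Usp7 (-0.106). On the count columns they were Usp1 (-0.0519), Usp10 (-0.155), Usp19 (-0.0206), Usp2 (-0.218), Usp21 (-0.175), Usp39 (-0.0453), Usp46 (-0.0503), Usp47 (-0.0573), Usp6nl (-0.0477), Usp7 (-0.192) and Usp9x (-0.128). With a pseudocount of 1 FPKM, Otub2 turned to 0.202. With 1 library left out, the log2 change ranged from -0.732 to 1.2 for Otub2, -0.11 to 0.049 for Usp13, -0.00428 to 0.328 for Usp1, -0.0603 to 0.181 for Usp10, -0.096 to 0.562 for Usp42, -0.0557 to 0.0773 for Usp48, -0.00351 to 0.485 for Usp49, -0.0979 to 0.547 for Usp54 and -0.0859 to 0.121 for Usp7.

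The MKO libraries held fewer fragments than the COM libraries, but low members such as Usp11 and Otub2 rest on few fragments in both groups. Usp11 had an estimated 13, 40 and 28 fragments in MKO and 29, 26 and 17 in COM. Otub2 had 16.1, 28.1 and 0.00716 in MKO and 15.7, 26.8 and 16.1 in COM.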
